A study of Homo sapiens with 16 samples.

Results

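Binding of the hypoxia-inducible factor (HIF) subunits HIF-1α and HIF-2α was described at 7 long non-coding RNA (lncRNA) genes linked to hypoxia or to cancer: MIR210HG, MALAT1, NEAT1, H19, UCA1, LUCAT1 and HOTAIR. They are 7 of the 18702 lncRNA genes of the GENCODE annotation on GRCh37. Peaks were taken when their centre lay within 20 kb of any annotated transcript start of 1 of these genes, which gave 51 of the 23398 peaks of the series (29 of HIF-1α and 22 of HIF-2α). The peaks came from 16 ChIP-seq libraries, a method that sequences the DNA recovered with a protein by an antibody and lists the stretches, called peaks, where such DNA accumulates. The libraries were made from A549 (lung), HCT116 (colorectal), PC3 (prostate) and T47D (breast) cancer cells, and all cells had been kept in 0.5% oxygen for 16 h. Chromatin was precipitated with the rabbit polyclonal antibody PM14 against HIF-1α or PM9 against HIF-2α, with 2 replicate libraries in each of the 8 groups of cell line and isoform. No library from cells in normal oxygen and no library without a specific antibody was used here, so the values describe binding under hypoxia and not its change. Each cell type was represented by 1 established line.

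HIF-1α and HIF-2α are alternative oxygen-regulated subunits that are destroyed in oxygenated cells, accumulate in hypoxia, and bind DNA together with HIF-1β at the core motif RCGTG (R standing for A or G). Long non-coding RNAs are transcripts without a protein product. MIR210HG is the host transcript of the hypoxia microRNA miR-210, NEAT1 is the scaffold of nuclear bodies called paraspeckles, MALAT1 is an abundant nuclear RNA, H19 is an imprinted RNA, UCA1 and LUCAT1 are transcripts first described in cancer, and HOTAIR lies in the HOXC cluster of developmental genes.

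The lists held from 275 to 4505 peaks per library and no read totals, so the depth of sequencing is unknown and a missing peak may lie below the authors' threshold. The 2 HCT116 HIF-1α lists were the longest and the first PC3 HIF-2α list was the shortest. Each peak carries a score from the peak caller whose scale is not stated. It was used as a percentile within its own list, where the best peak has 100 and a library without a peak at a site has 0. Nothing in the labels says that replicates came from separate cultures, so p-values measure only the spread between these libraries.

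Overlapping peaks of the 16 lists were merged into 11664 sites, of which 13 held the 51 peaks near the lncRNA starts. Of these 13 sites, 8 had a peak in both replicates of at least 1 group. The sequences at the sites that carry the main results are given on the plus strand of GRCh37, with RCGTG in capitals on either strand (ACGTG or GCGTG, read as CACGT or CACGC from the other strand). For the MIR210HG, NEAT1 and MALAT1 sites they are the 200 bases around the centre of the stretch shared by all peaks of the site. For the first UCA1 site and for LUCAT1 they are the bases around the copy of the motif that lies under every peak of the site. The central 200 bases of both these sites held no RCGTG, and the printed bases lie outside that stretch. The LUCAT1 site is labelled by its nearest LUCAT1 start, an internal one. It does not lie at that start but -15973 bp from it.
MIR210HG start site, chr11:568614-568813: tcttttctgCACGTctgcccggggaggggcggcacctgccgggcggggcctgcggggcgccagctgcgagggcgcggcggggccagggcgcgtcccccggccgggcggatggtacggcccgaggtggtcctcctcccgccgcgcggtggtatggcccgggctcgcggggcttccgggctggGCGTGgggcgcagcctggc
NEAT1 start site, chr11:65189735-65189934: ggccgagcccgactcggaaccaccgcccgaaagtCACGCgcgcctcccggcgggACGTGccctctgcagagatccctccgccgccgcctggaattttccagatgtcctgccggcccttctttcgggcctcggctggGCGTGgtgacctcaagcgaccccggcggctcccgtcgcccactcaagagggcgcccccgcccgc
MALAT1 start site, chr11:65264893-65265092: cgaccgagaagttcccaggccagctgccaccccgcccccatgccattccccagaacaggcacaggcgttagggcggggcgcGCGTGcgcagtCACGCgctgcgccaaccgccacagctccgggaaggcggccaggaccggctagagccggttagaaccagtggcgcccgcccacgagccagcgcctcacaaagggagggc
UCA1 first site, chr19:15939688-15939752: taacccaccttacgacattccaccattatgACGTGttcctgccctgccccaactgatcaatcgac
LUCAT1 site at an internal start, chr5:90515081-90515145: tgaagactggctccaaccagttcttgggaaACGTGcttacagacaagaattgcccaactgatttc

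The peaks of all 14 libraries at the MIR210HG start shared 837 bp, which held 6 copies of RCGTG. The 12 peaks at the NEAT1 start shared 898 bp with 7 copies. The 905 bp shared by the peaks of the first UCA1 site held 1 copy, an ACGTG 704 bp downstream of the canonical UCA1 start. RCGTG was present in the central 200 bp of 9 of the 13 sites, against 52.8% of all 11664 sites and 77.0% of the 1421 sites seen in 4 or more libraries. The motif TGANTCA of the AP-1 factors, searched on both strands, was in 1 of the 13 windows, against 9.53% of all sites. The absence of a motif says only that these letters are not in the window.

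Within 20 kb of their starts, MIR210HG had the most widely shared binding of the 7 genes. Its start site (chr11:567150-570215) had a peak in 14 of 16 libraries, 8 of HIF-1α and 6 of HIF-2α, and in both replicates of 6 of the 8 groups. In HCT116 the percentiles were 99.2 and 99.8 with HIF-1α and 98.2 and 98.6 with HIF-2α, so that this was among the best peaks of all 4 lists. In A549 they were 80.1 and 84.7 with HIF-1α and 71.3 and 79.0 with HIF-2α. In PC3 they were 95.8 and 96.0 with HIF-1α, while HIF-2α gave no peak in replicate 1 and 68.4 in replicate 2. In T47D they were 82.8 and 81.4 with HIF-1α, and HIF-2α gave no peak in replicate 1 and 81.8 in replicate 2. The lowest peak at this site was thus still at percentile 68.4 of its list, and the libraries without one held 275 and 423 peaks.

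The median peak centre was at -265 bp from the nearest MIR210HG start, negative values being upstream, and no annotated exon covered it. The nearest protein-coding start, that of RASSF7, was 7175 bp away. MIR210HG is read from the minus strand, and the hairpin of MIR210, matched to chr11:568089-568198, lies within it. The hairpin was covered whole by 11 of the 14 peaks. The microRNA made from its 3′ arm is shown with its seed, bases 2 to 8, in capitals, as RefSeq gives it.
hsa-miR-210-3p: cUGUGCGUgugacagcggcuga

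A second site near MIR210HG (chr11:574607-576705) had 1 peak, in HCT116 HIF-1α replicate 3 at percentile 60.0. It lay -7199 bp from the MIR210HG start but -814 bp from the start of the protein-coding gene PHRF1, which was thus nearer.

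NEAT1 came next, with a start site (chr11:65188344-65191350) in 12 libraries, 5 of HIF-1α and 7 of HIF-2α. Both replicates had it in 4 groups: A549 HIF-2α, HCT116 HIF-1α, HCT116 HIF-2α and T47D HIF-2α. In A549 HIF-2α gave percentiles of 90.3 and 90.8, whereas HIF-1α gave no peak in replicate 2 and 13.4 in replicate 3. In HCT116 the isoforms were close, with 90.7 and 90.5 for HIF-1α and 86.1 and 85.6 for HIF-2α. In T47D HIF-2α gave 77.3 and 62.7, whereas HIF-1α gave 20.5 in replicate 1 and no peak in replicate 2. HIF-2α was thus higher in both libraries in A549 and T47D, and HIF-1α was higher in both in HCT116. How many of all sites are separated in this way was not counted. In PC3 each isoform had a peak only in replicate 2, at 86.3 for HIF-1α and 77.6 for HIF-2α.

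The NEAT1 site was centred -324 bp from the nearest NEAT1 start, outside any annotated exon. Its nearest protein-coding start was that of FRMD8, 35522 bp away. A second NEAT1 site, at -3718 bp, had a single peak in A549 HIF-2α replicate 2 with a score of 50, the lowest score in that list. Another lncRNA start, of ENSG00000290057, was nearer to this second site, at 2391.5 bp.

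**Figure D1:**
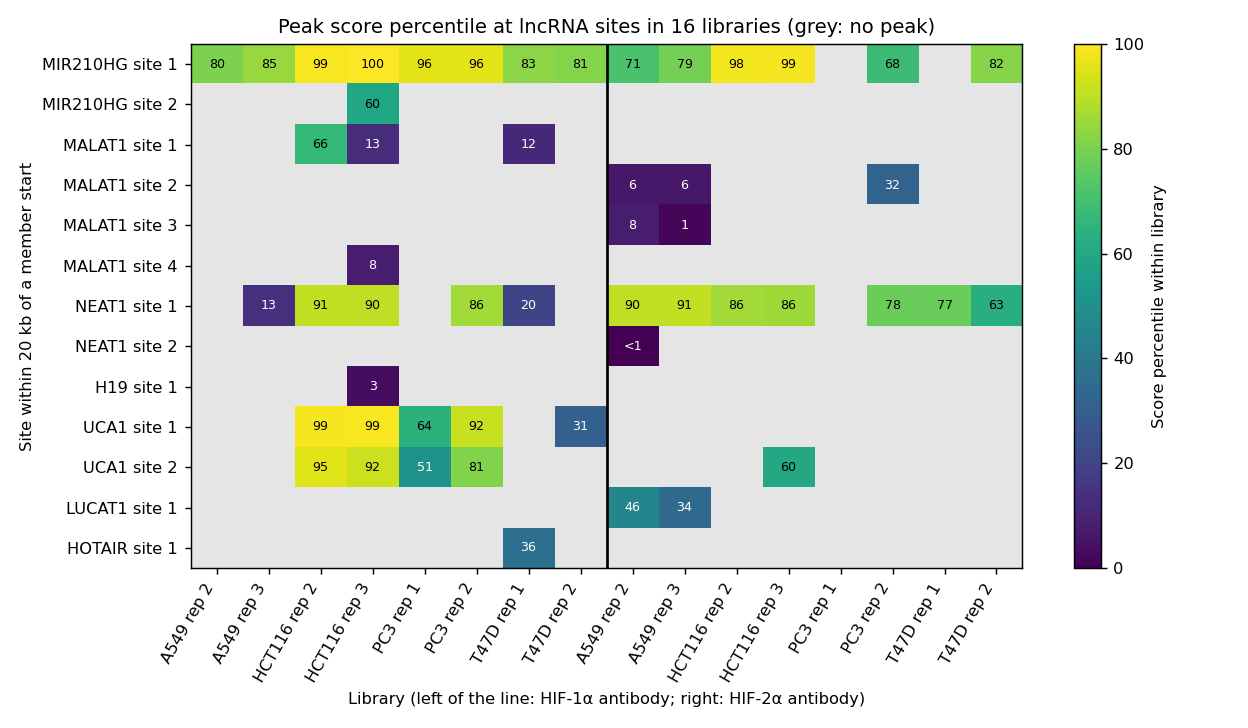
Score percentile within its own library at each of the 13 sites (rows) in each of the 16 libraries (columns, HIF-1α antibody left of the black line and HIF-2α antibody right of it), with grey cells where a library had no peak. The MIR210HG start site has values from 68.4 to 99.8 in 14 libraries and the NEAT1 start site has values in 12, while MALAT1, H19, LUCAT1 and HOTAIR have peaks in few libraries and mostly at low percentiles.

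UCA1 had a pair of sites, and these were mainly HIF-1α sites of HCT116 and PC3. The first (chr19:15938824-15940323) had peaks only in HIF-1α libraries. Its percentiles were 98.6 and 98.9 in HCT116, 64.1 and 91.7 in PC3, and 30.5 in T47D replicate 2, with no peak in T47D replicate 1, in A549 or in any HIF-2α library. The HCT116 values stood above the other lines, and PC3 replicates differed more from each other than HCT116 replicates did. The site covered exons of UCA1 and of LINC01764, another lncRNA, whose start was at 100.5 bp and so slightly nearer than the UCA1 start at -120.5 bp, and the 2 genes cannot be told apart here.

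The second UCA1 site (chr19:15945870-15948139) lay in an exon near the 3′ end of the gene, 7987 bp from the canonical start. A start of another lncRNA, ENSG00000288618, was nearer to it, at 339 bp against 1874 bp for the nearest UCA1 start. Its percentiles with HIF-1α were 95.1 and 92.4 in HCT116 and 51.2 and 81.2 in PC3. HIF-2α had 1 peak here, in HCT116 replicate 3 at 60.5. A549 and T47D had none in any of their 8 libraries. The nearest protein-coding start to both UCA1 sites was that of OR10H1, an olfactory receptor gene, at distances of -13100 and -20529 bp.

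MALAT1 had 9 peaks in 4 sites, most of them near the bottom of their lists, with a median percentile of 8.0. The site at its start (chr11:65264460-65265649, centred at -74 bp) was seen with HIF-1α alone. Its percentiles were 66.4 and 12.9 in HCT116 and 11.6 in T47D replicate 1, and the other 13 libraries had no peak, so that only HCT116 HIF-1α had it in both replicates, with values far apart. Further upstream, HIF-2α gave peaks in A549 at 2 sites. The site at -8267 bp (chr11:65253988-65257490) had 6.37 and 6.25 in A549 HIF-2α and 31.9 in PC3 HIF-2α replicate 2, and its 3 peaks had no base common to all. The site at -5794 bp (chr11:65258765-65259872) had 8.0 and 1.42 in A549 HIF-2α. Each was nearer to another lncRNA start, LINC02736 at 659 bp and ENSG00000290061 at 1212 bp, than to MALAT1. The fourth site had 1 peak, in HCT116 HIF-1α replicate 3 at 7.92, and was nearest to the start of the lncRNA TALAM1, at 865 bp.

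LUCAT1, H19 and HOTAIR had few peaks under this rule. LUCAT1 had 1 site (chr5:90514780-90515636), found in A549 HIF-2α alone at percentiles 45.6 and 34.3. It lay -15973 bp from an internal LUCAT1 start, in an exon of the gene, but 94983 bp from the canonical start. A start of another lncRNA, ENSG00000212930, was nearer, at 4000 bp, and its nearest protein-coding gene, ARRDC3, was 163898 bp away. H19 had 1 peak, in HCT116 HIF-1α replicate 3 at percentile 3.25, which lay 18592 bp from an H19 start and within the MRPL23 gene record. The start of the lncRNA MRPL23-AS1 was nearer to that peak, at 12305 bp. The hairpin of MIR675, carried by H19, was covered by 0 peaks. HOTAIR had 1 peak, in T47D HIF-1α replicate 1 at percentile 36.4. It lay -9216 bp from HOTAIR, in an exon of the lncRNA HOXC-AS3, and -894 bp from the start of HOXC10. Neither H19 nor HOTAIR had a site in both replicates of any group.

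Over all 7 genes, 49 of the 51 peaks were nearer to a start of the lncRNA than to a protein-coding start, the exceptions being the peaks beside PHRF1 and HOXC10. The median percentile of the 51 peaks was 77.6. Of them, 15 were at or above the 90th percentile, all at MIR210HG (6), NEAT1 (4) and UCA1 (5), and 7 were below the 10th, at MALAT1 (5), NEAT1 (1) and H19 (1). The peak farthest from a start was the H19 peak at 18592 bp. Among sites in both replicates of a group, the nearest just outside the 20 kb limit lay 20068 bp from MALAT1 and had HIF-1α peaks in 4 libraries, 2 of them HCT116, at percentiles from 13.8 to 52.4.

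**Figure D2:**
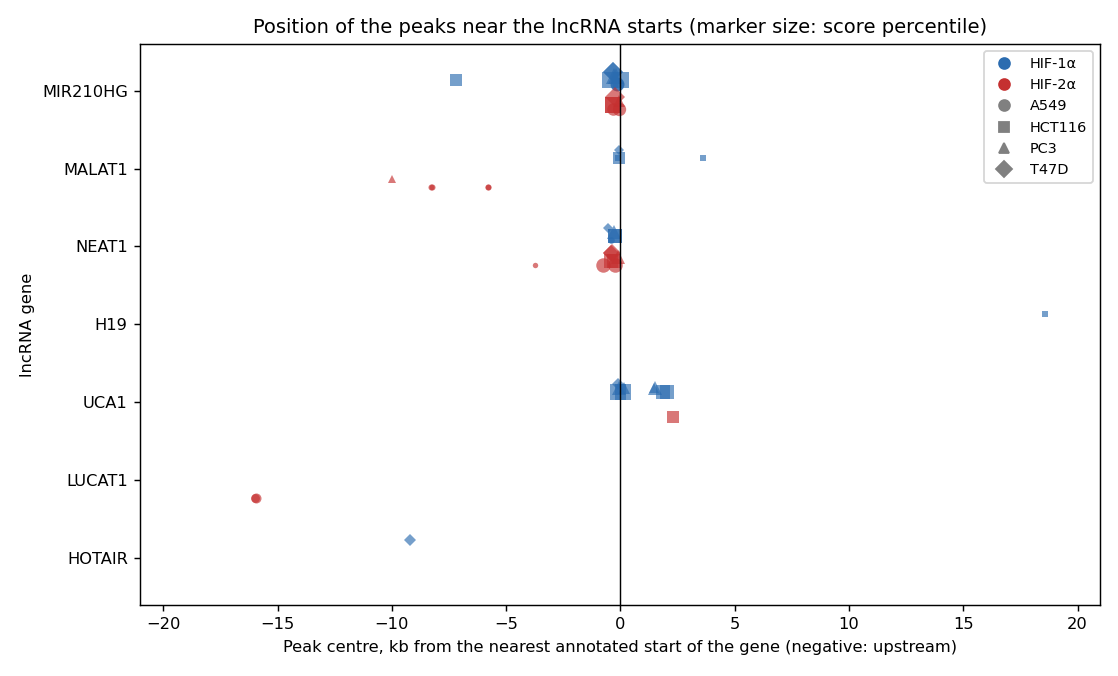
Position of the 51 peak centres, in kb from the nearest annotated start of each lncRNA gene (horizontal axis, negative values upstream), with the genes in rows, HIF-1α in blue, HIF-2α in red, the marker shape giving the cell line and the marker size the score percentile. The large markers lie at the starts of MIR210HG and NEAT1 and at the sites of UCA1, and the peaks of H19, LUCAT1 and HOTAIR lie 18592, -15973 and -9216 bp from a start.

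The next question was in which groups the genes had a site in both replicates, read beside all lncRNA genes of the annotation under the same rule. At least 1 group had a site at 5 of the 7 genes, against 11.8% of the 18702 lncRNA genes, and 6 or more groups at 1 of the 7 (MIR210HG), against 0.342%. A549 HIF-2α had sites at 4 of the 7 (MIR210HG, MALAT1, NEAT1 and LUCAT1), where 2.17% of lncRNA genes had one. HCT116 HIF-1α also had 4 (MIR210HG, MALAT1, NEAT1 and UCA1), against 9.07%. HCT116 HIF-2α had 2 (MIR210HG and NEAT1), against 1.27%, and PC3 HIF-1α had 2 (MIR210HG and UCA1), against 3.76%. A549 HIF-1α had MIR210HG alone, against 0.909%, T47D HIF-1α also had MIR210HG alone, against 1.68%, and T47D HIF-2α had NEAT1 alone, against 0.62%. PC3 HIF-2α, which includes the shortest list, had 0 of the 7, against 0.519%. In all, 8 of the 28 combinations of gene and cell line had a HIF-1α site and 7 of 28 had a HIF-2α site. The genes were chosen with results of these data known, so no test was made of these counts. The shares of all lncRNA genes were not matched for the number of annotated starts, which widens the stretch searched. MALAT1 had 40 distinct starts, and LUCAT1 had 33 over 111101 bp.

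These counts depended on the distance and on the list lengths. With a distance of 50 kb the HIF-1α count was 19 and the HIF-2α count 10, and with only the 275 best peaks of each library the counts were 5 and 4. The LUCAT1 site was lost with a distance of 10 kb or with the gene's own 5′ end as the only start. Neither MALAT1 nor LUCAT1 kept a site in any group when only peaks scoring at or above the median of all peaks were used. The same held with the 275 best peaks of each library.

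Other lncRNAs named in work on hypoxia or cancer were looked up by the same rule. Of 30 such genes 27 were found as lncRNA genes in the annotation. Of the 27, 8 had a site in both replicates of 1 or more groups, against 11.8% of all lncRNA genes. HIF1A-AS3, antisense to the HIF-1α gene, had one in all 8 groups, where 0.342% of all lncRNA genes had one in 6 or more. Among the others, LINC00511 had one in 5 groups, MIR22HG and HOTTIP in 2 each, and GAS5, KCNQ1OT1 and AGAP2-AS1 in 1 each. For GAS5 and KCNQ1OT1 that group was HCT116 HIF-1α, where 9.07% of all lncRNA genes had a site. For AGAP2-AS1 it was PC3 HIF-1α, where 3.76% had one. HIF1A-AS1, MEG3, CRNDE and MIR31HG were among those with none.

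The isoforms were then compared at each site over the 4 cell lines. The difference was the mean percentile with HIF-1α minus that with HIF-2α, tested two-sided with an exact permutation of the isoform labels inside each cell line (1296 relabellings) and adjusted by the Benjamini-Hochberg method over the 1421 sites with peaks in 4 or more libraries. Only 4 of the 13 lncRNA sites passed that filter, the start sites of MIR210HG and NEAT1 and both UCA1 sites. The other 9 were not tested. Of all sites tested, 10.8% were called higher with HIF-1α and 0.0704% higher with HIF-2α.

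MIR210HG was called higher with HIF-1α, and that call was not stable. The mean percentile was 89.99 with HIF-1α and 62.2 with HIF-2α (8 libraries each), a difference of 27.8 percentile points (exact permutation p = 0.00309, adjusted p = 0.0424). HIF-1α was the higher in 4 of 4 lines, with gaps of 7.26 points (A549), 1.13 (HCT116), 61.7 (PC3) and 41.2 (T47D). In PC3 and T47D 1 HIF-2α library had no peak at all. In PC3 that list held 275 peaks and the other HIF-2α list 1290, whereas in T47D the lists without and with the peak held 423 and 424. With 275 peaks taken from every library the difference was 34.4 points with an adjusted p of 0.0600. The direction held under every alternative run, but the adjusted p from the exact permutation test ranged from 0.0242 to 0.673 and was over 0.05 under all 6 alternatives other than leaving out a library. Leaving out 1 library kept the call in 7 of 16 cases. The call was lost without A549 HIF-1α replicate 2 (adjusted p = 0.0580, exact permutation), A549 HIF-1α replicate 3 (0.104), A549 HIF-2α replicate 2 (0.0864), HCT116 HIF-2α replicate 2 (0.0521), PC3 HIF-1α replicate 1 (0.243), PC3 HIF-1α replicate 2 (0.243), T47D HIF-1α replicate 1 (0.212), T47D HIF-1α replicate 2 (0.203) or T47D HIF-2α replicate 1 (0.0602). The difference itself was 19.3 points without PC3 HIF-2α replicate 1 and 17.6 points without T47D HIF-2α replicate 1.

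At the NEAT1 start the means went the other way, 37.7 with HIF-1α and 71.3 with HIF-2α, a difference of -33.6 points that did not pass the test (exact permutation p = 0.116, adjusted p = 0.179). The lines were not alike, with differences of -83.9 points in A549 and -59.8 in T47D but 4.79 in HCT116 and 4.35 in PC3. With the 275 best peaks of each library the difference was -39.1 points. Only HIF-2α groups then kept the site in both replicates, so that difference is given with no p. These values do not show that the isoforms were alike at NEAT1. Both UCA1 sites reached the limit of 4 libraries through HIF-1α, with 5 and 4 HIF-1α libraries against 0 and 1 HIF-2α library, so their isoform difference is given as a description with no p. At the first UCA1 site the mean was 48.0 with HIF-1α and 0 with HIF-2α, which had no peak in any of 8 libraries. At the second the means were 39.98 and 7.56, a difference of 32.4 points.

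**Figure D3:**
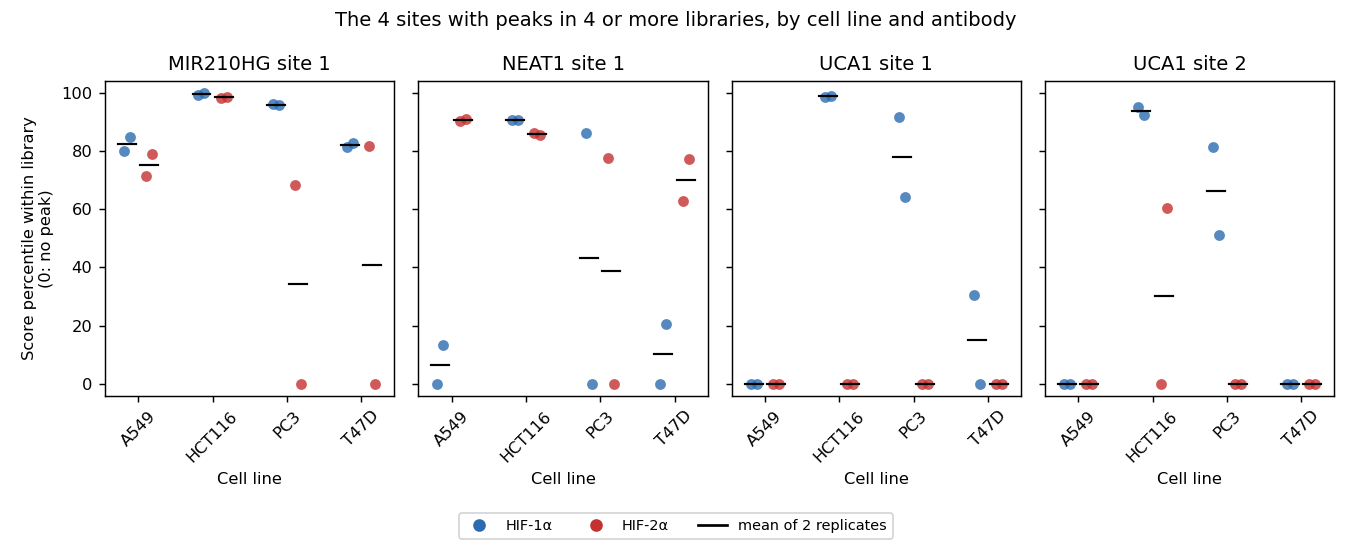
Score percentile within library (vertical axis, 0 where a library had no peak) at the 4 sites with peaks in 4 or more libraries, by cell line (horizontal axis), with HIF-1α in blue, HIF-2α in red, 1 point per library and a black bar at the mean of 2 replicates. MIR210HG is high with both isoforms except in 1 PC3 and 1 T47D HIF-2α library, NEAT1 is higher with HIF-2α in A549 and T47D, and UCA1 has values with HIF-1α in HCT116 and PC3.

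Each cell line was also compared with the other 3 at the same 1421 sites, exchanging the line labels within each isoform (784 relabellings). Of all sites 1.34% were called for A549, 6.47% for HCT116, 1.55% for PC3 and 2.46% for T47D. None of the 16 comparisons at the 4 lncRNA sites was called by this exact permutation test. Both UCA1 sites reached the limit of 4 libraries only with the HCT116 libraries counted. Their line difference is therefore given as a description with no p. HCT116 was higher than the other lines by 50.9 points at the second UCA1 site (62.0 against 11.03) and by 33.8 at the first (49.4 against 15.5). It was higher by 44.98 points at NEAT1 (88.2 against 43.2, exact permutation p = 0.0344, adjusted p = 0.234). At MIR210HG it was higher by 30.5 points (98.9 against 68.5, exact permutation p = 0.0370, adjusted p = 0.241). HCT116 also had the longest HIF-1α lists. With 275 peaks from every library the MIR210HG difference was 54.2 points and passed (adjusted p = 0.0214, exact permutation), and that at NEAT1 was 3.52 points.

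For the start sites of MIR210HG and NEAT1, which were in 8 or more libraries, the sites elsewhere with the most similar percentiles over the 16 libraries were looked up, by the mean absolute difference in percentile points. Those closest to MIR210HG were the sites nearest ANKRD37 (8.21 points, Pearson r = 0.95), RBPJ (9.10, r = 0.89) and TMEM63B (10.0, r = 0.83). ANKRD37, an ankyrin repeat gene, and RBPJ, the DNA-binding factor of the Notch pathway, had their site 305 and 197 bp from their start, whereas that of TMEM63B was 53492 bp away. For NEAT1 they were less alike, nearest WASF2 (14.7, r = 0.84), AZIN1 (14.9, r = 0.84) and SNX33 (17.2, r = 0.83), all at 17163 bp or more from the start. The 16 points of each correlation share libraries and list lengths.

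Because the 50 kb distance changed the counts, the sites in both replicates of a group within 100 kb of a canonical start were also listed. This was done after the values were seen, and no test was made. The most widely bound lay inside LUCAT1 (chr5:90575464-90577982), 33496 bp downstream of its canonical start and 30974 bp from the nearest of its starts. It had a peak in all 16 libraries and so in both replicates of all 8 groups. Its percentiles ranged from 92.1 to 99.9 in A549 libraries, 98.1 to 99.5 for HCT116, 97.9 to 99.5 for PC3 and 48.6 to 78.5 for T47D, so that T47D lay below the other lines in every library. The means were 91.3 with HIF-1α and 89.3 with HIF-2α. Another lncRNA start, of ENSG00000234292, was 236 bp from the site, and the nearest protein-coding start, of ARRDC3, was 102411 bp away.

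The second such site lay between NEAT1 and MALAT1 (chr11:65222093-65223498), 32526 bp downstream of the NEAT1 start and -42316 bp from that of MALAT1. It had a peak in all 8 HIF-1α libraries but in only 2 HIF-2α libraries. With HIF-1α the A549 libraries had percentiles of 55.2 and 58.0, HCT116 had 84.6 and 79.2, PC3 had 30.2 and 73.7, and T47D had 64.0 and 72.0. With HIF-2α they were 53.0 in A549 replicate 3 and 15.4 in T47D replicate 2. The mean was 64.6 with HIF-1α and 8.55 with HIF-2α, opposite in order to the means at the NEAT1 start. A start of the lncRNA ENSG00000291174 was 11.5 bp from this site.

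The sequences of both sites are given as before, again with RCGTG in capitals. That of LUCAT1 is centred on the 637 bp shared by the best-scoring peak of each of the 16 libraries and also holds 2 copies of the AP-1 motif, which are not marked and of which 1 overlaps the first run of capitals. That of the interval is centred on the 670 bp shared by its 10 peaks.
LUCAT1 gene body, chr5:90576361-90576560: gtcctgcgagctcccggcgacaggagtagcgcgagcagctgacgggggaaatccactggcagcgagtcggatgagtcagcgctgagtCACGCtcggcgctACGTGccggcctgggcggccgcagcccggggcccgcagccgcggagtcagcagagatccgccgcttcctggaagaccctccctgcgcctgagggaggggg
NEAT1 to MALAT1 interval, chr11:65222639-65222838: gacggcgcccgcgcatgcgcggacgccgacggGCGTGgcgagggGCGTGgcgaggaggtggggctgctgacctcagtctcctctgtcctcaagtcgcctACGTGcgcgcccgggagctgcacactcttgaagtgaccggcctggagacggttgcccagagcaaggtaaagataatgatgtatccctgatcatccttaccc

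**Figure D4:**
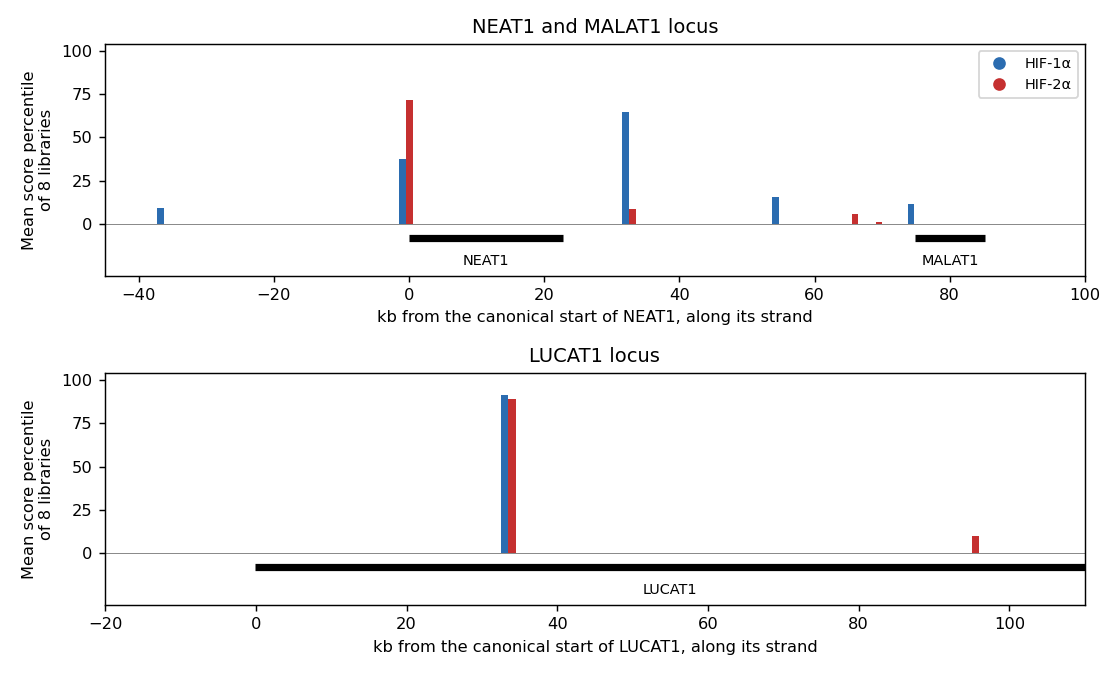
Mean score percentile over 8 HIF-1α libraries (blue) and 8 HIF-2α libraries (red) at sites found in both replicates of a group, against the distance in kb from the canonical start of NEAT1 (upper panel) and of LUCAT1 (lower panel) along the strand of the gene, with gene extents as black bars. HIF-2α has the higher bar at the NEAT1 start (71.3 against 37.7) and HIF-1α at the site between NEAT1 and MALAT1 (64.6 against 8.55), and inside LUCAT1 both bars are near 90 (91.3 and 89.3).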

How the data were processed

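ChIP-seq peak lists of HIF-1α and HIF-2α in A549, HCT116, PC3 and T47D cells (0.5% oxygen, 16 h) were used, 1 list per library and 2 replicates per group, grouped from the sample labels. The authors trimmed reads, aligned them to GRCh37, removed duplicates and reads of blacklisted regions, and called peaks per library with MACS (version not given in the sources used here). The paper also describes another caller, T-PIC, a count filter against random background regions, and a rule that replicate peaks overlap. The lists used here hold peaks seen in a single replicate, so the overlap rule was not applied to them. Whether the other steps were applied is not known. Their processing notes name Trim Galore 0.3.3, BWA 0.7.5a-r405, SAMtools 0.1.19, bedtools 2.17.0 and Picard 2.0.1. The score deposited with each peak is the caller's own and its scale is not stated. Depth is unknown, so no interval was computed.

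Python 3.11.15, numpy 2.4.6 and scipy 1.17.1 were used, with matplotlib 3.10.9 for figures. Peaks on chromosomes 1 to 22, X and Y were kept (29 peaks were not) and merged into sites at 1 bp of overlap. Starts came from GENCODE release 44 on GRCh37. Sites in 4 or more libraries were tested on score percentiles by exact permutation with Benjamini-Hochberg adjustment at 0.05. The functions were tested on simulated data. All 7 genes were named, with every site in both replicates of a group and, for start sites in 8 or more libraries, the 3 most similar sites over 1 Mb away. Genes, lists and tests were chosen with earlier results of these data known. Alternatives were other distances, start sets, score thresholds, equal list lengths, overlaps, value scales and filters, the replicate block, and leaving out each library. A nearest gene, a lncRNA of the comparison list and a sequence are not reported here.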

Additional observations from a re-analysis of the deposited data

Results flagged for a closer look

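The difference between isoforms at the NEAT1 start was unlike between cell lines. In HCT116 both HIF-1α libraries were above both HIF-2α libraries, and in A549 and T47D both were below. The difference of HIF-1α minus HIF-2α was 88.7 percentile points larger in HCT116 than in A549 and 64.6 points larger in HCT116 than in T47D. With 2 libraries per isoform in each line, these differences between lines were not tested. How many of all sites show such a pattern was not counted. In HCT116 the isoforms were only 4.79 points apart, while its HIF-1α lists held 4465 and 4505 peaks and its HIF-2α lists 901 and 1264. With an equal number of top peaks from every library, HCT116 kept this site in both replicates with HIF-2α but not with HIF-1α. The higher HIF-1α percentiles in HCT116 are thus ranks within lists of unequal length. The peak scores in HCT116, whose scale is not stated, were 238.8 and 193.4 with HIF-1α and 119.6 and 108.3 with HIF-2α. Beyond that setting, the part of list length in this order was not tested.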

How the results depend on the processing

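The combinations with a HIF-1α site, 8 as reported, numbered 19 at 50 kb, 15 with a peak in either replicate and 5 with the 275 best peaks, and those with a HIF-2α site, 7 as reported, 12 and 4 in the last 2 settings. Leaving out a library gave 8 to 11 and 7 to 10. Calls higher with HIF-1α over all sites (154) fell to 0 with presence in place of percentile (321 sites at unadjusted p under 0.05), 0 without the filter on libraries (471) and 0 with the replicate block (297), and leaving out a library gave 93 to 284. Calls higher with HIF-2α (1) were 0 on log10 scores, 0 with presence, 3 above the median score, 20 with the 275 best peaks, 0 without the filter, 0 with the replicate block, and 0 to 13 leaving out a library. Calls by line were 0 in all lines with presence (379 at unadjusted p under 0.05) and without the filter (2964). Above the median score they were 6 for A549, 48 for HCT116, 7 for PC3 and 22 for T47D, and with the 275 best peaks 26 for HCT116. Leaving out a library gave 0 to 28 for A549, 0 to 105 for HCT116, 0 to 0 for PC3 and 0 to 36 for T47D, all by exact permutation tests. Of the lncRNA sites, 0 of 16 line comparisons were called as reported and 1 of 8 with the 275 best peaks, and leaving out a library gave 0 to 0.

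Of 166 alternative values at the lncRNA sites, 148 kept their direction and side of the threshold, 15 lost a call (all at MIR210HG), 3 gained one and 0 changed sign. Of these gains, 1 was the isoform difference at the first UCA1 site. That site reached the limit on libraries only through HIF-1α, so this gain is not support. Another was the isoform difference at the NEAT1 start with an equal number of top peaks from every library. Only HIF-2α groups then kept the NEAT1 site in both replicates, so that gain is not support either. Replicates with the same number did not deviate together (correlations 0.0497, 0.0225, 0.0796 and 0.0482 in A549, HCT116, PC3 and T47D over 1421 sites), so the numbers were not taken as pairs. With the replicate block the smallest p that 256 relabellings allow is 0.00781 and the smallest adjusted p was 0.111. At MIR210HG the adjusted p with the block was 0.136 and at NEAT1 0.191, from the exact permutation test. The causes of these changes were not tested. Unknown depth limits every statement about a missing peak.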
